A study of Drosophila melanogaster with 18 samples.

Results

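The genes described here are 7 Drosophila genes known for their expression in the fat body: Lsp2, Fbp1, Fbp2, apolpp, Apoltp, fit and Obp99b. They were chosen by name, with earlier results of these data known, and a probe set was taken where the platform annotation gave it 1 of these genes. The first-generation Drosophila array carried 8 such probe sets, 2 of them for apolpp, among 13966 probe sets tested and 10825 genes named. Total RNA came from egg chambers of stages 9 to 10, which contain germ line cells and follicle cells and no fat body, from females aged 6 to 8 days. In all groups the flies had been kept with yeast for 24 h at 23 °C before dissection.

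In EGFR gain (CY2-GAL4, UAS-lambda-Top) an activated epidermal growth factor receptor was driven, and in EGFR loss (CY2-GAL4, UAS-dnEGFR) a dominant-negative one. In BMP gain (CY2-GAL4, UAS-tkv*) an activated type I receptor of bone morphogenetic proteins was driven, and in BMP loss (CY2-GAL4, UAS-Dad) an inhibitory Smad. CY2-GAL4 is known to drive UAS transgenes in follicle cells, so the 4 perturbed genotypes share a driver that the wild type, OreR, lacks. A driver-only genotype was not analysed here. EGFR gain, EGFR loss, BMP gain and wild type A formed hybridization round 1 with 12 arrays, and BMP loss and wild type B formed round 2 with 6. Each group had 3 arrays, and per the labels each sample held 100 of 300 egg chambers pooled per genotype. A p-value here therefore reflects only how much the 3 samples of a pool varied, and that variation may be technical.

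The fat body is the fly's counterpart of liver and adipose tissue and a main source of haemolymph proteins. It makes hexamerins, which store amino acids, and lipophorins, the lipoproteins that carry fat to other organs, the ovary among them. In adult females it also makes yolk proteins, which follicle cells of these stages make as well and which the oocyte takes up by endocytosis. In pooled egg chambers, fewer cells of a type and less RNA per cell cannot be told apart.

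Values are the deposited log2 intensities, and array medians lay between 4.45 and 4.52 in round 1 and between 4.02 and 4.04 in round 2. Levels were therefore compared only within a round. The labelled tissue matched its markers: the 5 follicle cell markers measured had means above a median of 99.9% of probe sets, and the 7 germ line markers above a median of 95.1%. Arrays of a group had mean Spearman correlations of 0.959 to 0.969 with each other. EGFR loss replicate 3 stood apart in RNA quality, with an actin 3′ signal 2.89 above the 5′ signal on the log2 scale, against 0.85 to 1.63 in the other arrays of round 1. Calls lost without that array are given with and without it.

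Lsp2 alone lay above the array median in 18 of 18 arrays, at the 50.4th to the 71.2nd percentile. The first probe set of apolpp was above the median in 4 arrays, fit and Obp99b in 3 each, and Fbp1 and Fbp2 in 1 each. Apoltp and the second probe set of apolpp were above it in 0. These positions show how much signal each probe set had to spare over the dim end of the array, and they do not rank the genes. The table held no detection calls, so none of the genes could be called absent. Within groups the SD of the 8 probe sets ran from 0.296 to 1.02 with a median of 0.768, against 0.573 for the 5136 probe sets whose means lay in the same range.

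In EGFR loss Obp99b and Lsp2 rose, 2 of 7 genes, while 1.69% of all probe sets were called higher at a Benjamini-Hochberg adjusted p under 0.05 and 3.17% in either direction. Of the 7 genes, 6 had a positive difference, with a median of 0.92 on the log2 scale against -0.00 over all probe sets. In EGFR gain, BMP gain and BMP loss 0 of 7 genes passed the limma test, where 2.81%, 2.39% and 2.29% of probe sets did. In those 3 comparisons 13.7%, 11.3% and 13.4% of probe sets had an unadjusted p under 0.05. The medians of the 7 genes were 0.02 in EGFR gain, 0.18 in BMP gain and -0.09 in BMP loss. The comparisons of round 1 share wild type A.

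**Figure D1:**
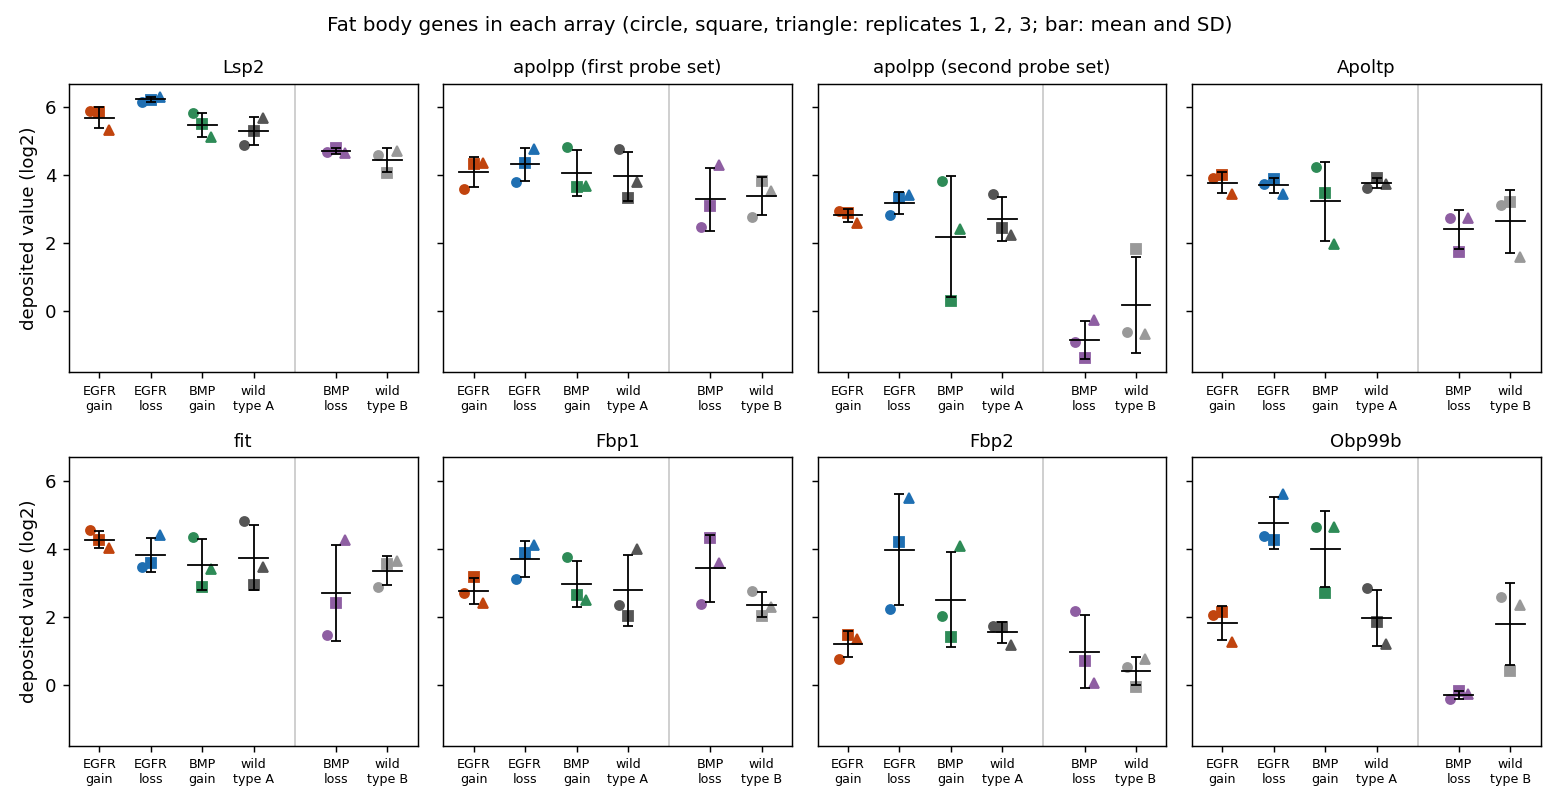
Deposited log2 value (vertical axis) of each of the 8 probe sets in the 18 arrays, by group, with round 1 left of the grey line and round 2 right of it; symbols are replicates and bars the mean with its SD. Obp99b lies at 4.27 to 5.63 in EGFR loss, above 1.21 to 2.85 in wild type A, and at -0.43 to -0.19 in BMP loss, below 0.41 to 2.60 in wild type B.

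Lsp2 encodes larval serum protein 2, a hexamerin secreted into the haemolymph and stored for use in metamorphosis and by the adult. Its values were 6.17, 6.21 and 6.31 in EGFR loss, against 4.89, 5.31 and 5.70 in wild type A. The lowest EGFR loss array thus lay above the highest wild type A array, and the EGFR loss arrays were the tightest set of round 1. Lsp2 averaged 6.23 ± 0.07 in EGFR loss and 5.30 ± 0.40 in wild type A (SD, n = 3 each). It rose by 0.93 ± 0.23 (SE; 95% interval 0.42 to 1.44), a 1.91-fold difference with an adjusted p of 0.049. The call was at the edge of the threshold. It held when wild type A replicate 3 was left out (1.13, adjusted p = 0.038), and leaving out any other single array ended it, with differences of 0.73 to 0.96 and adjusted p of 0.08 to 0.17. Without EGFR loss replicate 3 the difference was 0.89 (adjusted p = 0.12).

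In EGFR gain Lsp2 had values of 5.88, 5.86 and 5.34, and in BMP gain of 5.84, 5.50 and 5.11. Both sets overlapped wild type A, with differences of 0.39 (-0.11 to 0.90, adjusted p = 0.52) and 0.18 (-0.32 to 0.69, adjusted p = 0.88). The EGFR loss arrays lay above all arrays of either set. The direct difference was 0.54 ± 0.23 between EGFR loss and EGFR gain (adjusted p = 0.33), and 0.75 ± 0.23 between EGFR loss and BMP gain (adjusted p = 0.14), so neither passed. In round 2 Lsp2 had 4.69, 4.81 and 4.65 in BMP loss, against 4.60, 4.06 and 4.72 in wild type B. These overlapped, with a difference of 0.25 (-0.25 to 0.76, adjusted p = 0.73).

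Fbp1 encodes the fat body receptor that takes hexamerins back up from the haemolymph. It ranged over 3.13 to 4.12 in EGFR loss, against 2.04 to 3.99 in wild type A, and the groups overlapped. Its difference of 0.92 ± 0.56 (-0.29 to 2.12, adjusted p = 0.44) was close in size to that of Lsp2 but came with a wider spread. In BMP loss Fbp1 ranged over 2.37 to 4.33, against 2.04 to 2.78 in wild type B, with a difference of 1.07 ± 0.56 (-0.14 to 2.28, adjusted p = 0.45). EGFR gain (2.41 to 3.17) and BMP gain (2.50 to 3.76) overlapped wild type A, with differences of -0.03 and 0.18.

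Fbp2, a fat body protein related to alcohol dehydrogenase, had values of 2.24, 4.22 and 5.49 in EGFR loss, against 1.74, 1.72 and 1.18 in wild type A. The groups did not overlap, yet the EGFR loss arrays differed among themselves more than those of any other group did for this gene. Fbp2 averaged 3.98 ± 1.64 in EGFR loss and 1.55 ± 0.32 in wild type A (SD, n = 3 each). The difference of 2.44 ± 0.79 (0.73 to 4.15) missed the threshold (adjusted p = 0.13). Leaving out EGFR loss replicate 1, the lowest, brought it to 3.31 (adjusted p = 0.031), and leaving out replicate 3, the highest, to 1.68 (adjusted p = 0.34). In BMP gain, with 2.03, 1.42 and 4.09, replicates 1 and 3 lay above the wild type A arrays and replicate 2 among them, and the difference was 0.96 (-0.74 to 2.67, adjusted p = 0.77). EGFR gain (0.77 to 1.48) had a difference of -0.34. BMP loss (0.07 to 2.18) overlapped wild type B (-0.05 to 0.75), with a difference of 0.58.

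The lipoprotein genes did not pass the test in any comparison. apolpp encodes apolipophorin, the precursor that is cleaved into both structural proteins of lipophorin, the main haemolymph lipoprotein. Its first probe set had values of 3.81, 4.37 and 4.77 in EGFR loss, against 4.77, 3.34 and 3.79 in wild type A. The wild type A arrays spanned nearly the whole range of round 1, and the difference was 0.35 (-0.75 to 1.45, adjusted p = 0.80). Its ranges were 3.58 to 4.36 in EGFR gain and 3.67 to 4.84 in BMP gain, with differences of 0.12 and 0.10 from wild type A. In round 2 it ranged over 2.47 to 4.30 in BMP loss, against 2.77 to 3.84 in wild type B, with a difference of -0.09 (-1.19 to 1.01).

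The second probe set of apolpp was dimmer, and in round 2 it reached down to the 1.54th percentile of an array. It ranged over 2.82 to 3.41 in EGFR loss, 2.61 to 2.96 in EGFR gain and 0.30 to 3.85 in BMP gain, against 2.26 to 3.45 in wild type A. Its differences were 0.47 in EGFR loss, 0.11 in EGFR gain and -0.53 in BMP gain. The last of these rests on BMP gain replicate 2, the lowest array, without which it was 0.42. In BMP loss it ranged over -1.38 to -0.27, against -0.66 to 1.82 in wild type B, with a difference of -1.03 (-2.71 to 0.65, adjusted p = 0.65). Both probe sets of apolpp thus had intervals spanning 0 in every comparison.

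Apoltp encodes the apolipoprotein of the lipid transfer particle, which loads gut lipid onto lipophorin. It ranged over 3.45 to 4.004 in EGFR gain and 3.46 to 3.90 in EGFR loss, against 3.63 to 3.94 in wild type A. The 3 groups overlapped almost fully, with differences from wild type A of 0.02 (-1.11 to 1.14) in EGFR gain and -0.07 (-1.19 to 1.06) in EGFR loss. In BMP gain the values of 4.25, 3.49 and 1.97 spread more widely, with a difference of -0.53 (-1.66 to 0.59, adjusted p = 0.82). In round 2 it ranged over 1.75 to 2.75 in BMP loss, against 1.58 to 3.21 in wild type B, with a difference of -0.23.

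fit encodes a secreted peptide of female fat body, known to rise after protein feeding and to act in satiety. It ranged over 4.03 to 4.55 in EGFR gain, 3.47 to 4.41 in EGFR loss and 2.87 to 4.35 in BMP gain, against 2.95 to 4.82 in wild type A. Differences were 0.53 (-0.84 to 1.90), 0.08 (-1.29 to 1.45) and -0.21 (-1.58 to 1.17), with adjusted p of 0.82 to 0.97. In BMP loss its values of 1.47, 2.40 and 4.26 spread from below to above wild type B (2.88, 3.57 and 3.64). The difference was -0.65 ± 0.64 (-2.03 to 0.72, adjusted p = 0.74).

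Obp99b belongs to the odorant-binding proteins, small secreted carriers, and is expressed in adult fat body. It had values of 4.39, 4.27 and 5.63 in EGFR loss, against 2.85, 1.84 and 1.21 in wild type A. Every EGFR loss array lay above every wild type A array, and replicate 3 was the highest. Obp99b averaged 4.76 ± 0.76 in EGFR loss and 1.97 ± 0.83 in wild type A (SD, n = 3 each). It rose by 2.80 ± 0.65 (SE; 1.40 to 4.20), a 6.95-fold difference with an adjusted p of 0.035. Without EGFR loss replicate 3 the difference was 2.36 (adjusted p = 0.11). The call held when wild type A replicate 1 was left out (3.24, adjusted p = 0.038), and leaving out any other single array ended it, with adjusted p of 0.052 to 0.14. Fitting only the arrays of EGFR loss and wild type A also ended it (adjusted p = 0.19), as it did for Lsp2 (adjusted p = 0.25).

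In BMP gain Obp99b had values of 4.64, 2.71 and 4.64. Replicates 1 and 3 lay as high as the EGFR loss arrays, and replicate 2 fell among wild type A. The mean of 3.99 ± 1.11 (SD, n = 3) was 2.03 ± 0.65 above wild type A (0.63 to 3.43), which did not pass (adjusted p = 0.17). Without BMP gain replicate 2 it was 2.67 (adjusted p = 0.064). EGFR loss and BMP gain differed by 0.77 ± 0.65 (-0.63 to 2.17, adjusted p = 0.63), an interval that includes 0 and differences of up to 2.17. In EGFR gain the values were 2.05, 2.16 and 1.26, inside the range of wild type A, with a difference of -0.14 (-1.54 to 1.26, adjusted p = 0.96).

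In BMP loss the sign of the Obp99b difference was negative. The values were -0.43, -0.19 and -0.28 in BMP loss, against 2.60, 0.41 and 2.36 in wild type B, and the groups did not overlap. Obp99b averaged -0.30 ± 0.12 in BMP loss and 1.79 ± 1.20 in wild type B (SD, n = 3 each), a difference of -2.09 ± 0.65 (-3.49 to -0.69, adjusted p = 0.14). In BMP loss it lay at the 5.82nd to the 7.37th percentile of its arrays, near the dim end. Without wild type B replicate 2, the lowest wild type array, the difference was -2.78 (adjusted p = 0.042).

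Perturbations were also compared directly, and of the 7 genes Obp99b passed, in EGFR loss against EGFR gain. It was 2.94 ± 0.65 higher in EGFR loss (1.54 to 4.34, adjusted p = 0.033), while 1.15% of probe sets were called higher and 2.1% in either direction. Leaving out any single array ended that call, with differences of 2.50 to 3.19 and adjusted p of 0.055 to 0.12. Fbp2 differed by 2.78 ± 0.79 in the same comparison (adjusted p = 0.11), and by 3.65 without EGFR loss replicate 1 (adjusted p = 0.025). Against BMP gain 0 of 7 genes passed, where 2% of probe sets did and 15.5% had an unadjusted p under 0.05. Arrays of EGFR loss lay above all arrays of EGFR gain for 3 of 8 probe sets and above all arrays of BMP gain for 1 of 8. Over all probe sets 8.7% and 9.9% were higher without overlap in these comparisons.

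The response of each EGFR loss gene was also set against its response in BMP loss, each relative to its own wild type. Obp99b differed by 4.89 ± 0.92 (2.91 to 6.87), just outside the threshold (adjusted p = 0.052) in a contrast that called 0.236% of probe sets and gave 9.29% an unadjusted p under 0.05. Without wild type B replicate 2 the difference was 5.58 (adjusted p = 0.026). The other 6 genes had adjusted p of 0.57 to 0.98. The BMP gain response of Obp99b exceeded its BMP loss response by 4.12 ± 0.92 (2.14 to 6.10, adjusted p = 0.10), in a contrast added after the values had been seen that called 0.43% of probe sets. That difference was 4.81 without wild type B replicate 2 (adjusted p = 0.025) and 4.76 without BMP gain replicate 2 (adjusted p = 0.036).

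**Figure D2:**
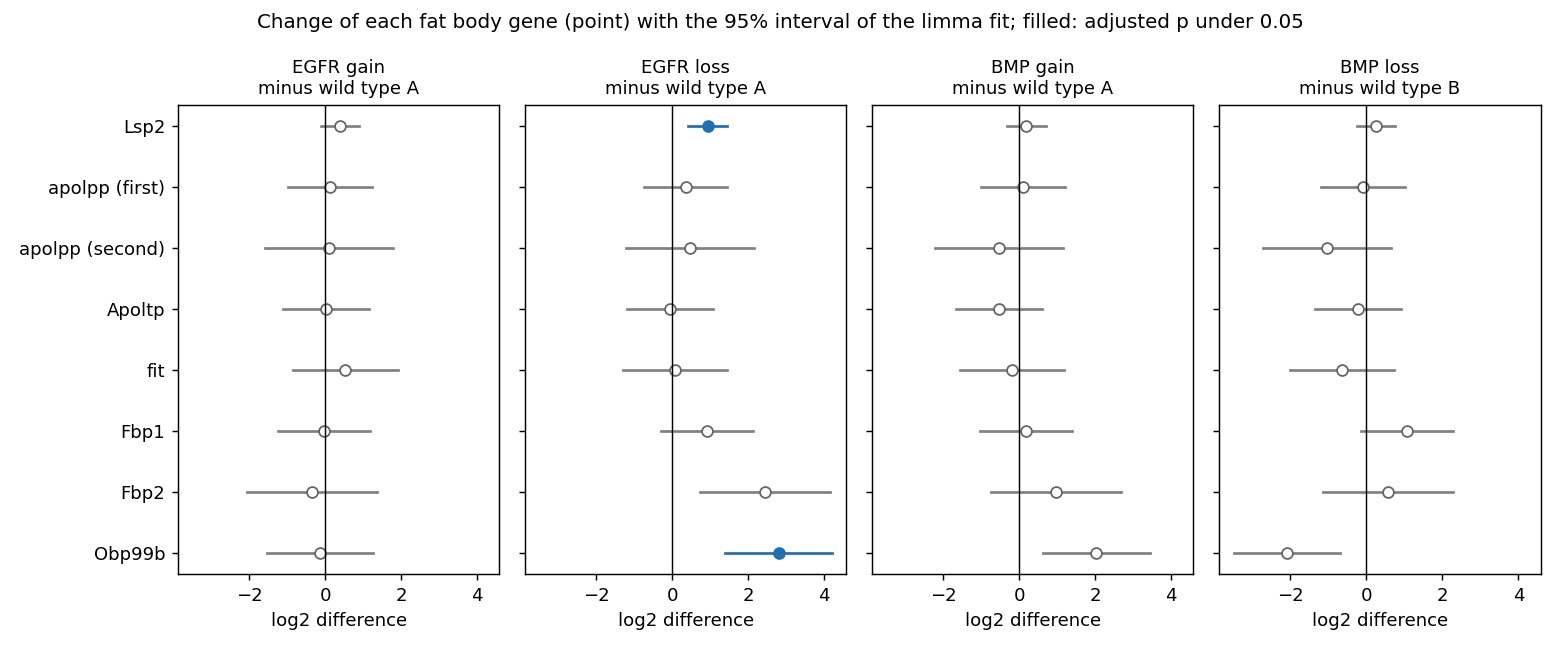
Log2 difference of each of the 8 probe sets from the wild type of its own round (horizontal axis) in the 4 perturbations, with the 95% interval of the limma fit; filled points have an adjusted p under 0.05. Lsp2 (0.93) and Obp99b (2.80) in EGFR loss are the filled points, and the Obp99b intervals of BMP gain (0.63 to 3.43) and BMP loss (-3.49 to -0.69) lie on opposite sides of 0.

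By group order within round 1, EGFR loss had the highest mean for Lsp2, both probe sets of apolpp, Fbp1, Fbp2 and Obp99b, and EGFR gain for Apoltp and fit. Neighbours in these orders had overlapping arrays except for Lsp2, where EGFR loss stood clear of EGFR gain. In round 2 wild type B had the higher mean for both probe sets of apolpp, Apoltp, fit and Obp99b, and BMP loss for the others, and only Obp99b was free of overlap. Arrays that did not overlap with wild type A were seen in EGFR loss for 3 of 8 probe sets, all higher, where 10.8% of all probe sets were higher without overlap. In EGFR gain and BMP gain 0 of 8 were free of overlap, against 21.3% and 20.5% of all probe sets in either direction. In BMP loss 1 of 8 was, lower, against 10.6%.

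Arrays of 1 group did not carry the fat body genes at 1 level. In EGFR loss, replicate 3 lay above the group mean in 7 of 8 probe sets and replicate 1 in 1 of 8, with mean deviations of 0.49 and -0.49. In BMP gain, replicate 1 lay above in 7 of 8 and replicate 2 in 2 of 8, with mean deviations of 0.69 and -0.67. Within groups, the first probe set of apolpp and fit moved together over the 18 arrays (Pearson r = 0.88, Spearman rho = 0.85), and r was 0.80 without the 2 arrays farthest out on apolpp. Lsp2 and Fbp1 had r = 0.63 and rho = 0.68. Both probe sets of apolpp had r = 0.61 and rho = 0.59 with each other, Fbp2 and Obp99b r = 0.49 and rho = 0.47, and Lsp2 and Obp99b r = 0.18. Other pairs ran down to r = -0.43 for Apoltp and Fbp2, and Lsp2 had -0.16 and -0.27 with the apolpp probe sets. The list thus did not move as 1 set within groups. All values of an array share its RNA sample and scaling, so these are descriptions of the arrays.

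**Figure D3:**
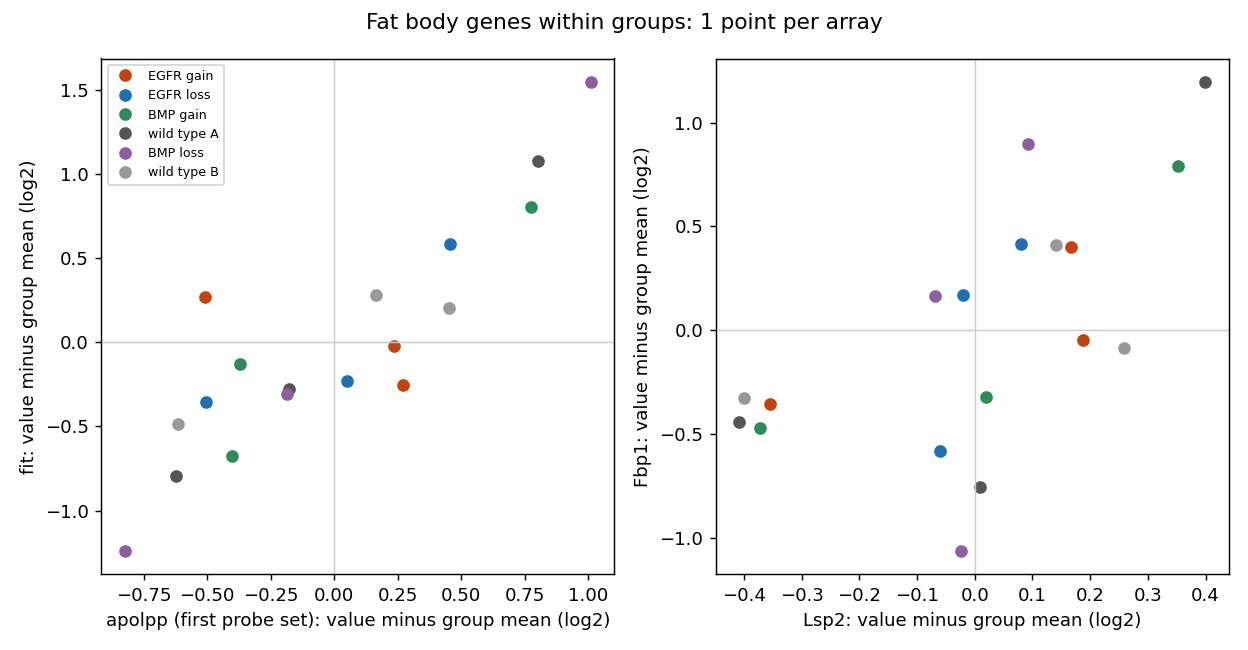
Deviation of each array from its group mean (log2), fit against the first probe set of apolpp on the left and Fbp1 against Lsp2 on the right, with 1 point per array coloured by group. The points rise together in both panels (r = 0.88 and r = 0.63), with a looser cloud on the right.

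Over all 18 arrays, after subtracting the means of each round, the genes most like each fat body gene were ranked by Pearson r. Only probe sets at or above the median level were searched, 6217 in number, and n is 18 for each r. Of the 7 genes only Lsp2 was bright enough to be found in this search, and of the 17 other fat body genes measured 8 were, so the matches do not show how far fat body genes resemble each other. Lsp2 was most like CG5214 (r = 0.86), the melanization protease gene Sp7 (0.84) and mab-21 (0.81). The first probe set of apolpp was most like Nplp2 (0.81), CG16704 (0.68) and CG3631 (0.66), and the second most like CG7275 (0.86), Sirt1 (0.81) and RnpS1 (0.70). Apoltp was most like Blimp-1 (0.74), O-fut2 (0.72) and Twdlbeta (0.71), and fit most like CG15747 (0.76), rhi (0.76) and Nlp (0.67). Fbp1 was most like CG10347 (0.70), then Lsp2 (0.68) and CG3587 (0.68). Fbp2 was most like Pfdn4 (0.81), Adck1 (0.80) and CG11309 (0.79). Obp99b was most like the muscle gene Mlc2 (0.79), then CG2233 (0.78) and swa (0.78), a germ line gene for the localization of maternal RNA.

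Of 25 other genes of the fat body listed, 17 were measured, and 0 rose and 1 fell in EGFR loss, with a median of 0.01, where 3.17% of all probe sets passed in either direction. The gene that fell was srp, a GATA factor of fat body and blood cells, at -1.56 ± 0.30 (adjusted p = 0.012), or -1.73 without EGFR loss replicate 3 (adjusted p = 0.017). In EGFR gain 0 of 17 passed. In BMP gain, where 2.39% of probe sets passed, 1 of 17 rose and 1 fell: Pepck1, an enzyme of gluconeogenesis, at 2.87 ± 0.65 (adjusted p = 0.032), and srp at -1.32 ± 0.30 (adjusted p = 0.032). When single arrays were left out, the Pepck1 call held in 2 of 6 fits and the srp call in 1 of 6. In BMP loss 0 rose and 1 fell, Tsf1, a transferrin, at -1.38 ± 0.25 (adjusted p = 0.0091), which held in 6 of 6 such fits, against 2.29% of probe sets called.

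Genes that handle lipid cargo were measured next. LpR1 and LpR2 encode lipophorin receptors, yl the yolk protein receptor of the oocyte, and Mtp the transfer protein that loads lipid onto apolipophorin. In EGFR loss the differences from wild type A were 0.08 for LpR1, -0.00 for LpR2, 0.16 for yl and -0.07 for Mtp, with adjusted p of 0.31 to 1. LpR2 was 0.33 without EGFR loss replicate 3 (adjusted p = 0.21). In EGFR gain they were 0.21, 0.32, 0.14 and -0.01, in BMP gain 0.30, 0.17, 0.17 and -0.26, and in BMP loss 0.15, 0.22, -0.12 and 0.07, and none passed. Of the 11 genes in this list 1 fell in EGFR gain, mdy, a triglyceride synthesis gene, at -0.46 ± 0.10 (adjusted p = 0.031), which held in 2 of 6 fits with an array left out, and 0 passed in EGFR loss, BMP gain or BMP loss.

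The yolk protein genes, shared by fat body and follicle cells, moved against Lsp2 and Obp99b in EGFR loss. All 3 fell there, with differences of -0.52 ± 0.06 for Yp1 (adjusted p = 0.00025), -0.44 ± 0.07 for Yp2 (adjusted p = 0.0023) and -0.62 ± 0.06 for Yp3 (adjusted p = 6.6e-05). In BMP gain Yp3 rose by 0.65 ± 0.06 (adjusted p = 3.2e-05), and Yp1 (0.13) and Yp2 (0.15) did not pass. In BMP loss Yp1 fell by 0.44 ± 0.06 on the log2 scale (adjusted p = 0.0013), and Yp2 (-0.19) and Yp3 (-0.03) did not pass. In EGFR gain the differences were 0.17, 0.14 and -0.14, none of which passed. The summed level of the 3 genes, as multiples of the array median, was 540.1 to 559 in EGFR loss, against 743 to 792 in wild type A.

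Markers of other tissues that a dissection could carry over were measured on the same arrays. In EGFR loss, where 1.69% of probe sets rose, the differences of most muscle, gut and haemocyte markers were positive, like those of the 7 fat body genes. They were above 0 for 12 of 15 muscle markers (median 0.54), 7 of 8 gut markers (median 0.34) and 6 of 9 haemocyte markers (median 0.53). Other lists differed, with 3 of 4 tracheal (median 0.18), 1 of 3 oenocyte (median -0.90) and 1 of 4 oviduct or spermatheca markers (median -0.03) above 0. Of the 17 other fat body genes 10 were above 0 (median 0.01). Gut differences were also above 0 for 6 of 8 markers in EGFR gain, 7 of 8 in BMP gain and 5 of 8 in BMP loss. Of the muscle markers 2 rose: Prm, the paramyosin gene, by 1.31 ± 0.24 (adjusted p = 0.01), and Mlc2, a myosin light chain gene, by 0.95 ± 0.21 (adjusted p = 0.028). Of 8 gut markers 1 rose, the digestive protease gene Jon25Bii, by 0.72 ± 0.14 (adjusted p = 0.014). Without EGFR loss replicate 3 Prm was at 1.20 (adjusted p = 0.041), Jon25Bii at 0.70 (adjusted p = 0.044) and Mlc2 at 0.91 (adjusted p = 0.075). None of 9 haemocyte, 3 oenocyte, and 4 oviduct or spermatheca markers passed there. Of 4 tracheal markers 1 fell, the chitin-binding protein gene Gasp, by 2.96 ± 0.61 on the log2 scale (adjusted p = 0.019), held in 3 of 6 fits with an array left out.

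Each list was also summed by array, in multiples of the array median. The 7 fat body genes summed to 6.54, 7.80 and 11.5 in EGFR loss, against 5.07, 3.71 and 4.87 in wild type A, without overlap. Of the 7 genes, Lsp2, Fbp2 and Obp99b also lacked overlap singly, so the sum is not separate evidence of a rise across the list. The sum was 4.35 to 5.69 in EGFR gain and 4.11 to 7.42 in BMP gain, and 3.12 to 5.18 in BMP loss, against 3.60 to 3.97 in wild type B. The 17 other fat body genes summed to 63.0 to 72.8 in EGFR loss, against 59.1 to 63.1 in wild type A, and overlapped. Muscle markers summed to 46.0 to 63.9 in EGFR loss, against 45.2 to 48.4 in wild type A, and haemocyte markers to 17.7 to 19.5, against 17.5 to 18.6, and both overlapped. The probe sets named for the actin genes Act87E and Act79B made up 60.1% to 72.1% of the muscle sum in EGFR loss, against 76.3% to 79.7% in wild type A. They did not pass (-0.18 and 0.14). The overlap of the sums therefore says little about the dimmer muscle genes. Both actin probe sets lay high, at the 97.5th and 88.0th percentile on average. Their names carry the suffix _f_at, for probes shared by a gene family, so their signal may include other actin genes. The sum of the other fat body genes rests mostly on Fdh, Desat1, AGBE and FASN1, at the 88.9th to the 93.6th percentile on average. The haemocyte sum leans on vkg, at the 90.1st. These overlaps say little about the dimmer genes of either list. Gut markers summed to 9.33 to 10.4 in EGFR loss, against 6.76 to 7.40 in wild type A, without overlap. They also lay higher without overlap in EGFR gain, at 8.20 to 9.68, where 0 of 7 fat body genes passed. LManII and Jon25Bii are the brightest gut markers, at the 69.6th and 58.2nd percentile on average. Singly, each also lay above wild type A without overlap in EGFR loss and EGFR gain. LManII had 6.48, 6.48 and 6.32 in EGFR loss, against 5.94, 5.89 and 6.10 in wild type A. The gut sum is thus not separate evidence of a rise across the list. In BMP loss the other fat body genes (53.8 to 55.9, against 50.4 to 53.3 in wild type B) and the gut markers (9.20 to 9.86, against 7.48 to 8.97) also lay higher without overlap. The part of carried-over fat body, muscle and gut and of RNA quality in the Obp99b and Lsp2 results was not tested. The CY2-GAL4 driver, which wild type A lacks, cannot be told apart from the perturbation in comparisons with it.

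**Figure D4:**
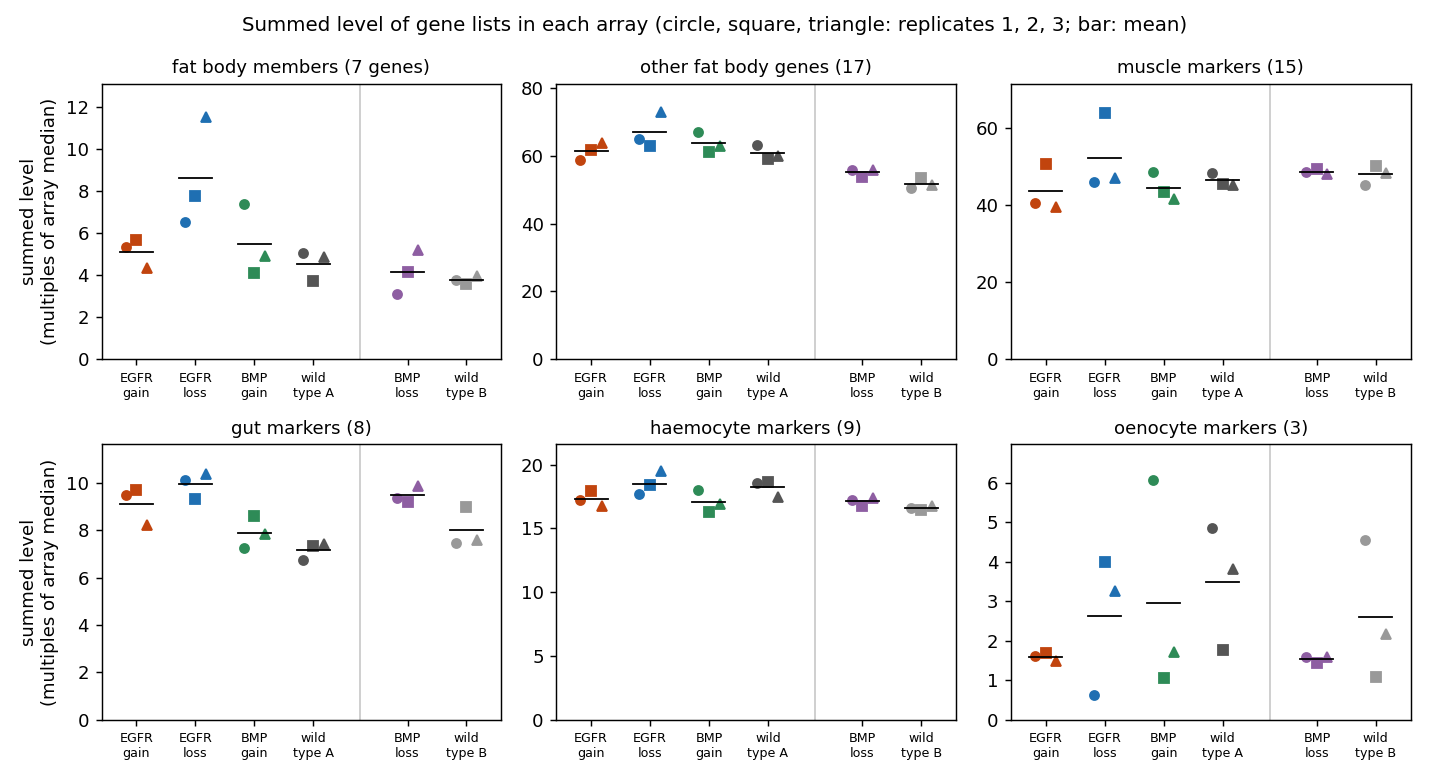
Summed linear level (multiples of the array median, axes from 0) of 6 gene lists in each array, by group, with round 1 left of the grey line; symbols are replicates and bars the group mean. The 7 fat body genes and the 8 gut markers lie higher in EGFR loss than in wild type A without overlap. Gut markers do so in EGFR gain as well. Other fat body genes, muscle, haemocyte and oenocyte markers overlap in EGFR loss. The muscle sum is carried mostly by the probe sets of Act87E and Act79B, whose signal may include other actin genes. The brightest genes weigh most in each sum.

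In the other perturbations the marker lists gave 3 further calls among the tissues outside the egg chamber. Gasp fell in EGFR gain by 2.85 on the log2 scale (adjusted p = 0.023) and in BMP gain by 2.56 (adjusted p = 0.046), and the gut protease gene Jon25Bi rose in BMP loss by 1.85 (adjusted p = 0.033). With single arrays left out these calls held in 2 of 6, 1 of 6 and 0 of 6 fits, and Gasp lay on average at the 6.89th percentile. Of 5 follicle cell markers 1 passed, psd, a vitelline membrane gene, which fell in EGFR gain by 0.51 on the log2 scale (adjusted p = 0.012). Of 7 germ line markers 1 passed, osk, which sets the posterior pole, and it fell in EGFR loss by 0.55 on the log2 scale (adjusted p = 0.022). Without EGFR loss replicate 3 the difference of osk was -0.45 (adjusted p = 0.067), and its call held in 2 of 6 fits with an array left out. In EGFR loss 1 of the 7 germ line markers had a difference above 0 (median -0.34). They summed to 103.0 to 125.5 multiples of the array median there, against 133.2 to 153.0 in wild type A, lower without overlap. The germ line sum was also lower without overlap in BMP loss, at 113.5 to 118.46, against 118.48 to 121.0 in wild type B. Follicle cell markers overlapped in both comparisons. In BMP gain, where Obp99b was high in replicates 1 and 3, the 3 oenocyte markers summed to 6.07, 1.06 and 1.71, against 4.86, 1.76 and 3.82 in wild type A. Their part in the BMP gain values of Obp99b was not tested.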

How the data were processed

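The authors' deposited table holds log2 values of 14010 probe sets for 18 arrays, made with the affy package per the submitters' processing notes. How background was corrected and probes summarised is not given in the sources used here. Base 2 was set by the highest value, 13.3, which is 9860 as a power of 2 and 578050 as a power of e. Normalization appears to have been done by the authors within each round, and none was added. Of 13966 probe sets other than 44 controls, 12442 had 1 gene. Limma 3.58.1 in R 4.3.3 fitted 6 group means over the 18 arrays with 12 residual degrees of freedom and a prior of 1.31, and adjusted p over all 13966 by Benjamini-Hochberg, with a threshold of 0.05. The fit was tested on simulated data. Intervals are 95%. Fold changes are 2 to the power of the log2 difference.

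The 7 genes and all gene lists were chosen with earlier results of these data known. Named are the 7 genes, LpR1, LpR2, yl, Mtp and Yp1 to Yp3, up to 4 called genes of each list, and the 3 most correlated genes of each of the 7, taking the brightest probe set of a gene. Sample groups came from titles. Alternatives changed the arrays fitted, moderation, array weights, normalization, a filter on dim probe sets and the replicate block, and left out each array in turn. Replicate numbers did not pair arrays: deviations of same-numbered arrays correlated at -0.025 to 0.091.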

Additional observations from a re-analysis of the deposited data

Results flagged for a closer look

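Differences between perturbations that passed the test were picked out for a closer look, and each is a log2 difference from the fit over 18 arrays. The EGFR loss response exceeded the EGFR gain response by 2.94 for Obp99b (adjusted p = 0.033). Among other fat body genes EGFR loss was above EGFR gain by 0.44 for Fdh and 0.36 for regucalcin, and below it for srp (-1.47). Among lipid genes it was above by 0.66 for mdy and 1.08 for the lipase gene Lip4. All 3 yolk protein genes were below EGFR gain, with -0.68 for Yp1, -0.58 for Yp2 and -0.47 for Yp3, and the antimicrobial peptide gene Mtk was below by a difference of -4.13. The muscle genes Mlc1 (2.87), Mlc2 (1.31) and Prm (1.82) were above, and the germ line gene aub (-0.63) below.

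Against BMP gain, EGFR loss was above by 0.39 for Fdh, 0.61 for mdy and 1.54 for Prm. It was below for Npc2a (-0.45), Yp1 (-0.65), Yp2 (-0.59), Yp3 (-1.26), osk (-0.62) and aub (-0.6). The EGFR loss response of Yp3 was below its BMP loss response by a difference of -0.59 (adjusted p = 0.011). These comparisons share the EGFR loss arrays, so they are not separate evidence of what differed in EGFR loss. Without EGFR loss replicate 3, whose RNA quality differed, Obp99b was at 2.50 against EGFR gain (adjusted p = 0.11), Mtk at -3.88 (adjusted p = 0.093), Mlc1 at 2.69 (adjusted p = 0.1) and Fdh at 0.38 (adjusted p = 0.084). Against BMP gain, Fdh was at 0.33 (adjusted p = 0.13) and Npc2a at -0.49 (adjusted p = 0.072) without that array, and with single arrays left out their calls held in 1 of 6 and 0 of 6 fits.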

How the results depend on the processing

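Counts of called probe sets depended on which arrays were fitted. Fitting only the arrays compared gave 62 in EGFR gain, 28 in EGFR loss, 95 in BMP gain, 55 in BMP loss, 2 between EGFR loss and EGFR gain, 17 between EGFR loss and BMP gain, and 8 for EGFR loss minus BMP loss, against 392, 443, 334, 320, 293, 279 and 33 in the fit over all arrays. Fitting only the arrays of a round gave 215 in EGFR gain, 227 in EGFR loss, 55 in BMP loss, 157 between EGFR loss and EGFR gain and 134 between EGFR loss and BMP gain. An intensity trend with robust moderation gave 725 in EGFR loss, 488 in BMP loss, 446 and 507 in the direct comparisons with EGFR gain and BMP gain, and 72 for EGFR loss minus BMP loss, and array weights gave 578 in BMP gain. Leaving out single arrays gave 219 to 318 in EGFR gain, 233 to 438 in EGFR loss, 210 to 256 in BMP gain, 183 to 263 in BMP loss, 173 to 270 and 120 to 292 in the direct comparisons, and 14 to 36 for EGFR loss minus BMP loss. The replicate block, which takes replicate numbers as a pairing, gave 241, 251, 253 and 186 in EGFR gain, EGFR loss, BMP gain and BMP loss, 167 and 147 in the direct comparisons, 0 for EGFR loss minus BMP loss and 35 for the BMP gain minus BMP loss contrast, which had 60. With the block Obp99b in EGFR loss had an adjusted p of 0.077 and Lsp2 of 0.14, and the numbers only name the arrays.

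For the fat body genes 3 of 57 results were called and 843 alternative values were computed. Of these 760 kept direction and side of the threshold, 28 lost the call, 8 gained one, and 47 changed sign, none of which was called. Obp99b and Lsp2 in EGFR loss were each called in 5 of 14 alternatives and Obp99b between EGFR loss and EGFR gain in 4 of 14. Under array weights Obp99b in EGFR gain changed sign to 0.0146. Leaving out single arrays changed signs as follows, on the log2 scale. In EGFR gain the ranges were -0.19 to 0.52 and -0.12 to 0.47 for the apolpp probe sets, -0.0905 to 0.19 for Apoltp, -0.41 to 0.57 for Fbp1, -0.52 to 0.30 for Obp99b and -0.082 to 0.0379 for Mtp. In EGFR loss they were -0.16 to 0.0552 for Apoltp, -0.32 to 0.61 for fit, -0.0364 to 0.23 for LpR1 and -0.22 to 0.33 for LpR2. In BMP gain they were -0.0217 to 0.38 for Lsp2, -0.29 to 0.50 and -1.36 to 0.42 for the apolpp probe sets, -1.04 to 0.10 for Apoltp, -0.61 to 0.33 for fit and -0.22 to 0.78 for Fbp1. In BMP loss they were -0.60 to 0.32 for the first apolpp probe set, -0.76 to 0.11 for Apoltp and -0.0225 to 1.03 for Fbp2. Between EGFR loss and EGFR gain they were -0.0259 to 0.48 for the first apolpp probe set and -0.25 to 0.0376 for Apoltp, and between EGFR loss and BMP gain -0.17 to 0.97 for Apoltp and -0.0556 to 0.68 for fit. For EGFR loss minus BMP loss they were -0.17 to 0.69 for Apoltp and -0.68 to 0.45 for Fbp1. LpR2 in EGFR loss, at -0.0044, became 0.16 with array weights, 0.0026 with quantile normalization and 0.0282 with median centring, and Yp1 in BMP gain became -0.0193 with quantile normalization. Of 44 called results for list genes, 20 kept the call when any single array was left out and 0 changed sign, in fits added after the values had been seen. The cause of these shifts was not tested, beyond fewer arrays in the fits that leave some out.

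The number of arrays limits precision, and 7 of the 8 probe sets lay below the array median in most arrays, in a table with no measure of background. The filter on dim probe sets left 12013 and kept the calls of Obp99b (adjusted p = 0.028) and Lsp2 (adjusted p = 0.041) in EGFR loss.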

Other observations

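Antimicrobial peptide genes, which the fat body expresses in an immune response, gave 2 calls in EGFR gain, where 0 of the 7 fat body genes and 2.81% of probe sets passed. Of 13 listed 5 were measured, and Drs and Mtk, which encode the antifungal peptides drosomycin and metchnikowin, rose in EGFR gain by 2.47 ± 0.57 (adjusted p = 0.034) and 3.67 ± 0.90 (adjusted p = 0.045). DptB (1.17, adjusted p = 0.14), AttD (0.47, adjusted p = 0.85) and Def (0.56, adjusted p = 0.39) did not pass. Drs averaged 4.14 ± 0.36 in EGFR gain and 1.67 ± 0.93 in wild type A, and Mtk 5.80 ± 0.19 in EGFR gain and 2.13 ± 0.98 in wild type A (SD, n = 3 each). The 5 genes summed to 6.99 to 8.47 multiples of the array median in EGFR gain, against 2.57 to 2.61 in wild type A. The sum also lay above wild type A without overlap in EGFR loss (3.04 to 3.91) and BMP gain (2.73 to 3.37). In BMP loss it overlapped wild type B. Of the 5 genes 0 passed in EGFR loss, BMP gain or BMP loss. The 2 calls were ended by leaving out single arrays: Drs held in 1 of 6 such fits and Mtk in 0 of 6.

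Pepck1 was called only in BMP gain, yet its values in every perturbed group were above those of its wild type. They were 4.31, 4.28 and 3.78 in EGFR gain, 3.28, 3.72 and 5.05 in EGFR loss, and 6.30, 4.41 and 4.75 in BMP gain, against 3.11, 2.29 and 1.47 in wild type A. In BMP loss they were 5.59, 3.82 and 4.67, against 3.17, 1.47 and 2.21 in wild type B. Pepck1 did not pass in EGFR gain (adjusted p = 0.19), EGFR loss (adjusted p = 0.19) or BMP loss (adjusted p = 0.079). It is 1 of the 17 other fat body genes measured. Over all probe sets 10.8% were higher without overlap in EGFR loss. In either direction 21.3% were free of overlap in EGFR gain and 20.5% in BMP gain. The 4 perturbed genotypes share the CY2-GAL4 driver, which cannot be told apart from the perturbations here, and the comparisons of round 1 share wild type A.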
